A study of Arabidopsis thaliana with 27 samples.

Results

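The type-A response regulators of Arabidopsis thaliana are a family of 10 genes, ARR3 to ARR9 and ARR15 to ARR17. All 10 were taken by gene identifier from a table of 34262 genes and followed through root RNA-seq libraries of 9 groups. The members are the whole family and were not picked from it by their values, but the choice was made with earlier results of these data known. The seedlings had been exposed to indole-3-carbinol (I3C), to its solvent or to leaf wounding, and were wild type or of lines labelled as overexpressing ribosomal protein S30.

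Cytokinin is perceived by histidine kinase receptors, which pass a phosphate through histidine phosphotransfer proteins to the type-B response regulators in the nucleus. Type-B regulators bind DNA and switch on cytokinin target genes, among them the type-A regulators. Type-A proteins have a receiver domain but no DNA-binding domain, and as a group they dampen the pathway that induces them, so their transcripts are widely used as a readout of cytokinin response in roots. I3C is a breakdown product of indole glucosinolates and is known in Arabidopsis as an antagonist of auxin perception.

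RNA came from roots of 10-day-old seedlings grown hydroponically, 20 seedlings per treatment. Col_NT, Col_200 and Col_400 were the wild type Col-0 kept for 2 h in DMSO, 200 µM I3C or 400 µM I3C. Col_w was Col-0 with each leaf wounded 3 times and roots taken after 8 h, so that wounding, duration and the absence of DMSO cannot be told apart against Col_NT. The groups ICT1-2_NT, ICT1-2_200 and ICT1-2_400 were a homozygous line with a transgene built in the submitters' laboratory. ICT1-8098_NT and ICT1-8098_200 were a homozygous line taken from an overexpression (FOX) library. Both lines were given DMSO or I3C for 2 h. Both lines are labelled as carrying S30 under the 35S promoter, which is active in most cell types, and each genotype was 1 line. Each group had 3 libraries with deposited counts except ICT1-2_NT with 2, in all 26.

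Levels are the authors' normalized read counts, given as mean ± SD over the libraries of a group (n = 3, or n = 2 for ICT1-2_NT). Differences are log2 differences of (normalized count + 1) with their standard error (SE), which understates the change of low genes, and adjusted p-values are from limma over 21180 genes with Benjamini-Hochberg adjustment (two-sided). A gene was called higher or lower at an adjusted p under 0.05. A gene was tested if 3 or more libraries held 10 or more normalized counts of it. Groups of 2 or 3 libraries often did not overlap. In Col-0, 36.3% of all genes tested were without overlap between 200 µM I3C and DMSO and 43.8% between 400 µM and DMSO. Between the doses the share was 9.49%. For I3C against DMSO it was 52% and 59.1% in ICT1-2 and 39.5% in ICT1-8098. For ICT1-2 against Col-0 it was 49.8% with DMSO, 33.3% at 200 µM and 38.7% at 400 µM, and for ICT1-8098 30.4% at 200 µM. Whether replicates were separate cultures is not stated, and the spread behind a p-value may be technical.

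The libraries held 9503924 to 19433428 reads assigned to genes, and libraries of a group had Spearman correlations of 0.9705 or more. Of the S30 genes, RPS30A was at 2659 ± 728 in Col_NT and 5743 ± 821 in ICT1-8098_NT (log2 difference 1.13, SE 0.21, adjusted p = 0.000649). The level in ICT1-2_NT was 2429 ± 540 (adjusted p = 0.796), and neither other S30 gene was higher there (adjusted p = 0.319 for AT4G29390 and 0.833 for AT5G56670). The overexpression given in the label was therefore measured for ICT1-8098 and not for ICT1-2, and every direction given for ICT1-2 is one of libraries labelled so. Root markers were present in every group. Summed levels of 8 vasculature markers lay between 2073 and 3322 over all libraries, and no gene of the marker lists for vasculature, meristem and cap, endodermis, root hair or shoot was at 0 in a whole group. When libraries were scaled by total reads in place of the size factors, the median difference of all genes moved to -0.34 with either I3C dose in Col-0, to -0.27 and -0.51 in ICT1-2 and to -0.22 in ICT1-8098, and no call of a member changed direction.

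Of the 10 members, 9 were tested. ARR17 was not, with 15 reads in all, found in 7 libraries, and no level above 3.63. ARR15 had 149 reads in all and passed through the 3 libraries of ICT1-8098_NT, at 10.3, 10.8 and 17.2, together with a single Col_400 library at 12.5, so little can be said of it elsewhere. For comparison between genes, levels were divided by exon length. In Col_NT the mean level in normalized counts per kb of exon was highest for ARR4 (762), followed by ARR8 (541), ARR9 (337), ARR6 (333), ARR5 (281), ARR7 (239) and ARR3 (120), with ARR16 at 6.52 and ARR15 at 4.33. The order was not the same in every group. In Col_200 ARR5 came after ARR4 (541 and 702 per kb), and in each library labelled ICT1-2_200 or ICT1-2_400 ARR5 was the highest member. The median over the 26 libraries, which mixes the groups, was 716 per kb for ARR4, 513 for ARR5 and 365 for ARR8.

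The family falls into sister pairs whose coding sequences are closer to each other than to any other member: ARR3 with ARR4 (80.3% identity), ARR5 with ARR6 (80.1%), ARR7 with ARR15 (77.0%), ARR8 with ARR9 (79.9%) and ARR16 with ARR17 (82.7%). The longest stretch that the transcripts of a pair share without mismatch was 41 bases, in ARR3 with ARR4 and in ARR8 with ARR9. The treatment of multi-mapping reads is not given in the sources, so a small exchange of reads within these pairs cannot be told apart from a change of level. The proteins encoded by the first isoforms run from 153 residues (ARR17) to 259 residues (ARR4).

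The promoters of 4 members are shown because their genes moved in different directions with I3C (ARR5 and ARR16 upward, ARR6 and ARR7 downward in at least 1 line). Each is the 250 bases before the annotated start of the gene in TAIR10.1, 5′ to 3′ on the strand of the gene. Capitals mark AGATT and AGATC on either strand (AATCT and GATCT when read here), core letters known to be bound by type-B regulators. The windows are chr3:17760951-17761200 (minus strand) for ARR5, chr5:25254319-25254568 (minus strand) for ARR6, chr1:6579315-6579564 (minus strand) for ARR7 and chr2:16969423-16969672 (plus strand) for ARR16, and no exon of another gene lies in them.
ARR5: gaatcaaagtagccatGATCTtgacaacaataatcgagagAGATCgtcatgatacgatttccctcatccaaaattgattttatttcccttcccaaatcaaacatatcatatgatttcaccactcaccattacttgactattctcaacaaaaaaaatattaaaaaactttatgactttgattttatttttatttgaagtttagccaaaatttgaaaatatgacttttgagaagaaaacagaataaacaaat
ARR6: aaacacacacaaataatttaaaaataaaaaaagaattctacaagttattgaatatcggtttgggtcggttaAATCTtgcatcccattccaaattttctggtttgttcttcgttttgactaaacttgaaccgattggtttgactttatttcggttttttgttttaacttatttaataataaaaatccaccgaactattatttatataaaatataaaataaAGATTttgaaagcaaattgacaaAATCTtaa
ARR7: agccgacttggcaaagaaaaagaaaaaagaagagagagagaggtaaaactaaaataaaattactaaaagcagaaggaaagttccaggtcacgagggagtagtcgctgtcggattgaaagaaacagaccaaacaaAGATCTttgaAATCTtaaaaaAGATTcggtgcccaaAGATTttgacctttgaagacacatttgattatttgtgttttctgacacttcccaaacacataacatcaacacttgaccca
ARR16: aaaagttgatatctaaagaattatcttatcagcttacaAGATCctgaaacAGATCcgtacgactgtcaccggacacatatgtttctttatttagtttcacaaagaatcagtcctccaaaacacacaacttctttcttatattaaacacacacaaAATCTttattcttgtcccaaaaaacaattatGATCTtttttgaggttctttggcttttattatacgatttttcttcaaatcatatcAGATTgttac
ARR7 and ARR16 each hold 5 matches, and 2.52% of 27438 promoters of protein-coding genes hold at least as many. In ARR7 the capitals AGATCT are 2 matches, AGATC on the strand of the gene and its overlapping partner on the other. ARR6 holds 3 matches (18.3% of promoters hold at least as many) and ARR5 2 (40.8%). ARR9 also holds 2, and ARR3, ARR4, ARR8, ARR15 and ARR17 hold 1 each, a number reached by 73.2% of all promoters. ARR5, called higher in Col-0 with I3C, and its sister ARR6, called lower, both carry these letters, and a match is a description of the sequence only.

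The first question was how the family responded to I3C in the wild type. In Col-0 at 200 µM, 2 members rose, ARR5 and ARR16, and 4 fell, ARR3, ARR6, ARR8 and ARR9. At 400 µM ARR5 and ARR16 again were higher and ARR4, ARR6, ARR8 and ARR9 lower. Of the 9 tested members 6 were called at each dose, against 28.9% of all genes at 200 µM (15% higher, 13.9% lower) and 35.8% at 400 µM (18.4% higher, 17.4% lower). With scaling by total reads, 9.72% of all genes were higher and 32% lower at 200 µM, and 12.5% and 34% at 400 µM, so the share beside which the falling members stand depends on the scaling. The median log2 difference of the members was -0.41 at 200 µM and -0.61 at 400 µM, and that of all genes tested -0.03 and -0.06. Both comparisons use the same Col_NT libraries.

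The sister genes ARR5 and ARR6, whose proteins have 184 and 186 residues, moved in opposite directions. ARR5 (AT3G48100, chromosome 3, 17758427 to 17760950, minus strand), whose promoter is a standard cytokinin reporter, was at 285, 428 and 509 in the Col_NT libraries, at 696, 765 and 892 in Col_200 and at 543, 721 and 826 in Col_400. All 6 I3C libraries lay above the highest control. The mean went from 407 ± 113 to 784 ± 99.0 at 200 µM (log2 difference 0.98, SE 0.26, adjusted p = 0.00605) and to 697 ± 143 at 400 µM (0.79, SE 0.26, adjusted p = 0.0200). The first call was lost without Col_NT replicate 4, the lowest control (0.74, adjusted p = 0.0547). The second was lost without that library (0.56, adjusted p = 0.138), without Col_400 replicate 4 (adjusted p = 0.0921) or replicate 5 (adjusted p = 0.0609), and with scaling by total reads (0.51, adjusted p = 0.0907).

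ARR6 (AT5G62920, chromosome 5, 25252007 to 25254318, minus strand) was at 459, 471 and 525 in Col_NT, at 197, 251 and 270 in Col_200 and at 146, 148 and 152 in Col_400. The 3 groups did not overlap. The log2 difference from Col_NT was -1.03 (SE 0.24, adjusted p = 0.00239) at 200 µM and -1.70 (SE 0.24, adjusted p = 6.94e-06) at 400 µM, and both calls held in each of the 15 alternatives run. Between the doses ARR6 was lower at 400 µM by -0.67 (SE 0.24), which was not called (adjusted p = 0.283). The exons of ARR6 share 348 bp with AT5G62910, a protein-coding gene on the opposite strand, and the library kit does not mark strand. AT5G62910 rose from 194 ± 37.0 in Col_NT to 427 ± 11.3 in Col_200 (log2 difference 1.15, adjusted p = 0.000279) and 498 ± 114 in Col_400 (1.35, adjusted p = 3.65e-05), opposite to ARR6, and its part in the ARR6 counts was not tested.

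The ratio of ARR5 to ARR6 within a library does not depend on how libraries are scaled. It was 0.605, 0.932 and 0.970 in Col_NT, 2.58 to 3.88 in Col_200 and 3.67 to 5.65 in Col_400. ARR6 was thus the higher of the pair in each control library and ARR5 in each I3C library of Col-0. For either dose the exact permutation test gave p = 0.1 (two-sided, 3 libraries against 3), which is the smallest this design allows. The ratio was formed for this pair only, whose genes had been called in opposite directions in these same libraries. As neither gene overlapped its controls, the ratio could not overlap either, and this test adds no support to the calls.

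**Figure D1:**
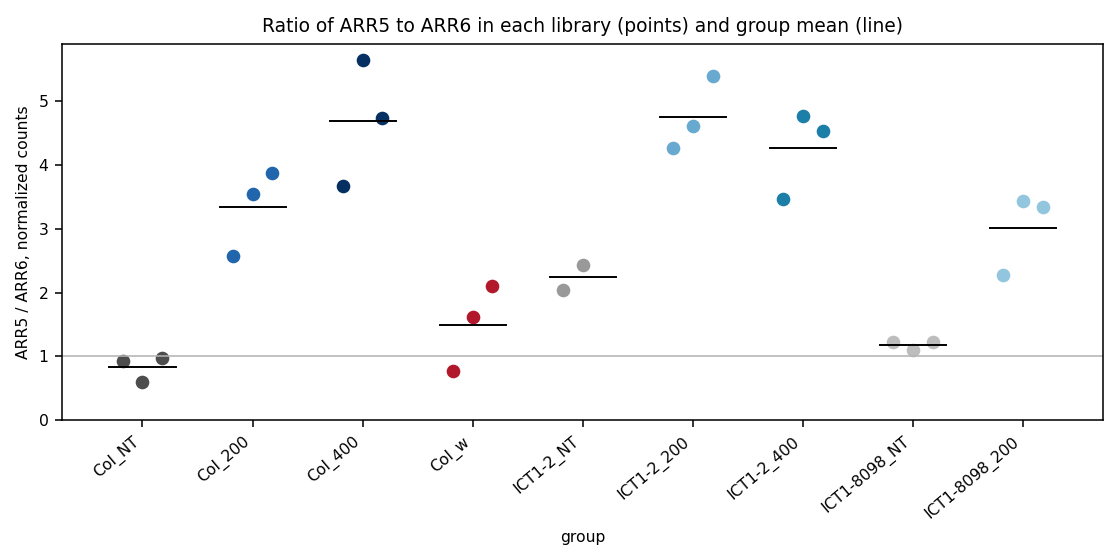
Ratio of ARR5 to ARR6 in normalized counts (vertical axis, from 0) in each library (points) of the 9 groups (horizontal axis), with the group mean (line) and a grey line at equal levels. The Col_NT libraries lie at 0.605 to 0.970 and the Col_200 and Col_400 libraries at 2.58 to 5.65.

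Both sisters of the pair ARR8 and ARR9 fell at both doses. ARR8 (AT2G41310, chromosome 2, 17221840 to 17224880, plus strand) was at 1122, 1267 and 1456 in Col_NT, at 495, 605 and 618 in Col_200 and at 597, 647 and 651 in Col_400. Every I3C library was below every control. The log2 difference was -1.16 at 200 µM (SE 0.15, adjusted p = 1.97e-06) and -1.01 at 400 µM (SE 0.15, adjusted p = 1.04e-05), and both calls held in all 15 alternatives. ARR9 (AT3G57040, chromosome 3, 21109059 to 21111567, plus strand) went from 638 ± 73.7 to 426 ± 57.9 (-0.58, SE 0.21, adjusted p = 0.0377) and to 385 ± 17.0 (-0.72, SE 0.21, adjusted p = 0.00890). Its groups did not overlap either, but the call at 200 µM was lost without Col_200 replicate 5 or any 1 of the Col_NT libraries (adjusted p = 0.0503 to 0.151). Long non-coding RNA genes lie opposite both, sharing 299 bp with ARR8 and 190 bp with ARR9, and were listed at 0 in every library but for 2.79 in 1 Col_400 library opposite ARR9.

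In the pair ARR3 and ARR4 each gene was called at a single dose. ARR4 is known to bind phytochrome B. ARR3 (AT1G59940, chromosome 1, 22065617 to 22067233, minus strand) was at 147, 157 and 167 in Col_NT, at 75.7, 81.0 and 101 in Col_200 and at 84.0, 94.8 and 133 in Col_400. No I3C library reached the controls. The difference was -0.87 at 200 µM (SE 0.26, adjusted p = 0.0126), lost without Col_200 replicate 4 (adjusted p = 0.0550), and -0.61 at 400 µM, which was not called (adjusted p = 0.0676). ARR4 (AT1G10470, chromosome 1, 3441988 to 3444360, minus strand) was at 1599 ± 206 in Col_NT, 1474 ± 384 in Col_200 and 1128 ± 125 in Col_400. Its 400 µM libraries were all below the controls (-0.50, SE 0.19, adjusted p = 0.0422), a call kept in 9 of 15 alternatives, with adjusted p-values from 0.000586 to 0.168. It was lost without any 1 of the Col_NT libraries, without Col_400 replicate 1 or 4, and with no filter on low counts.

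ARR16 (AT2G40670, chromosome 2, 16969673 to 16972113, plus strand) is a short member of 164 residues, and with few reads it had the largest rise of the family in Col-0. It was at 8.24, 13.9 and 18.4 in Col_NT, at 29.0, 47.6 and 57.2 in Col_200 and at 33.4, 43.0 and 43.9 in Col_400. The groups with I3C lay wholly above the control. The log2 difference was 1.66 (SE 0.46, adjusted p = 0.00822) at 200 µM and 1.56 (SE 0.46, adjusted p = 0.0108) at 400 µM, and both were lost without Col_NT replicate 3 (1.37, adjusted p = 0.0522, and 1.26, adjusted p = 0.0614). ARR7 (AT1G19050, chromosome 1, 6577833 to 6579314, minus strand), known as a target of the homeodomain protein WUSCHEL in shoot meristems, was at 225 ± 21.1, 174 ± 53.0 and 174 ± 93.6 in the 3 groups, which overlapped (adjusted p = 0.403 and 0.197). Its lowest library was Col_400 replicate 1, at 65.9.

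Between 400 and 200 µM none of the 9 tested members was called in Col-0, against 0.123% of all genes. At an unadjusted p under 0.05 there was 1, ARR6. For ARR5 the 95% interval of the difference ran from -0.72 to 0.35 and for ARR8 from -0.16 to 0.46.

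**Figure D2:**
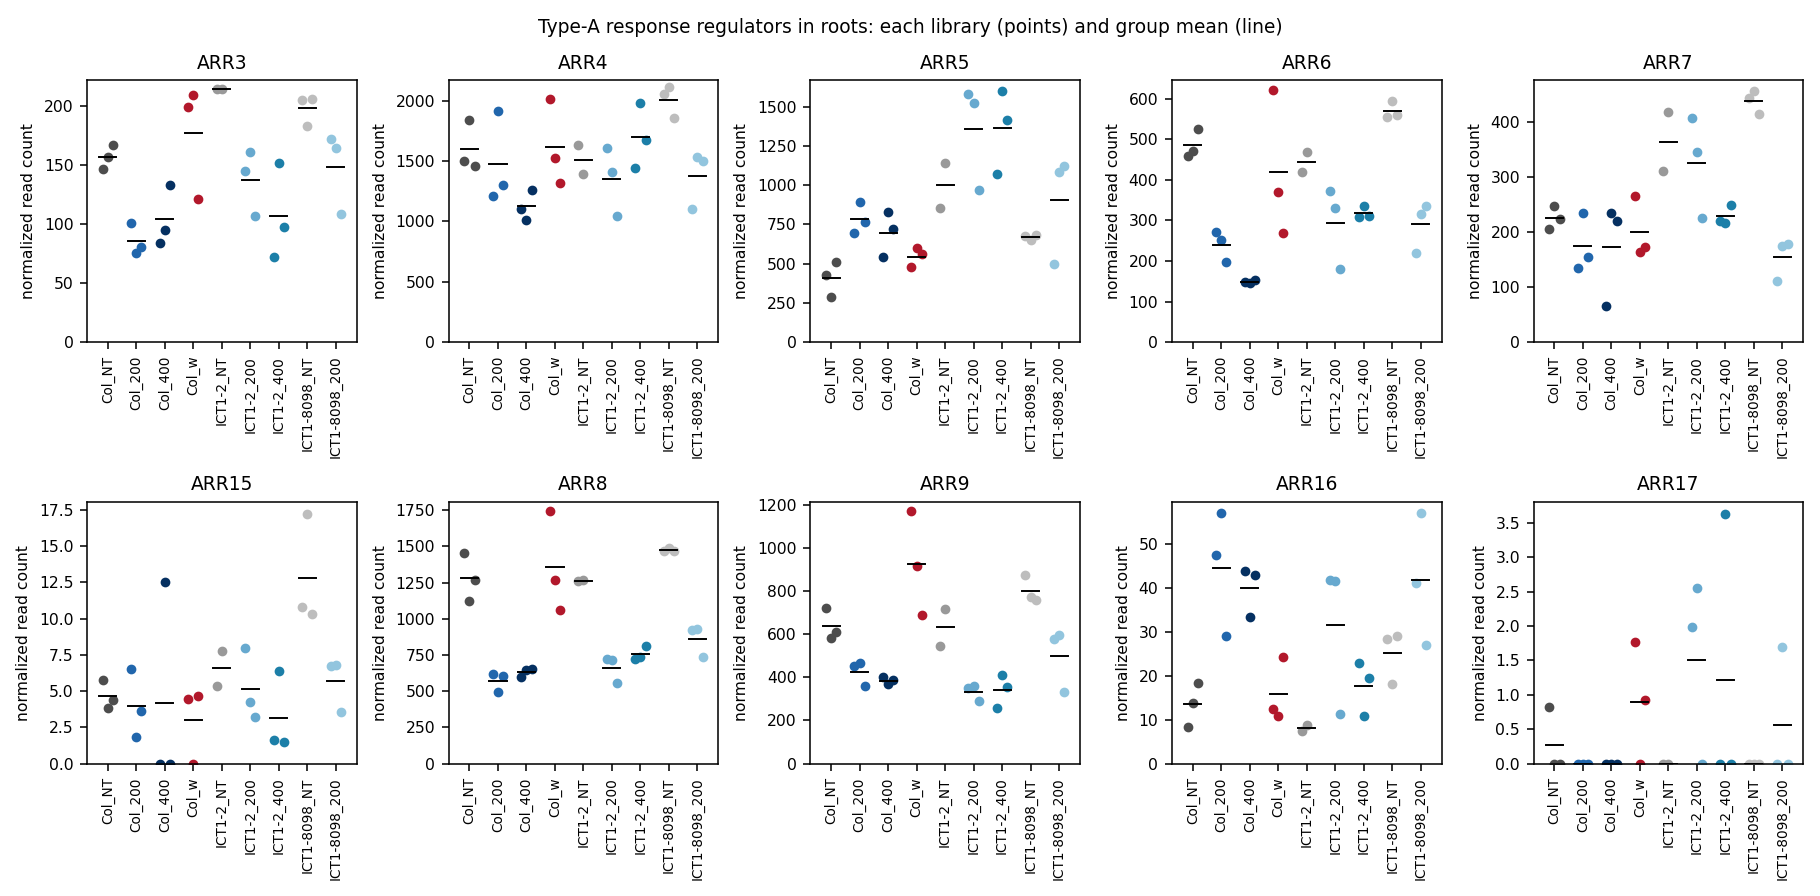
Normalized read counts (vertical axes, each from 0 on its own scale) of the 10 members in each library (points) of the 9 groups (horizontal axes), with group means (lines). ARR8 is lower in every I3C library than in every DMSO library of the same line, ARR5 is higher in both Col-0 I3C groups, and ARR17 stays at or under 3.63.

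The shares within the family shifted accordingly. Summed per kb of exon, the family was at 2623 ± 49.3 in Col_NT, 2150 ± 294 in Col_200 and 1877 ± 223 in Col_400. ARR5 supplied 10.7% ± 2.84 of that sum in Col_NT, 25.2% ± 1.37 in Col_200 and 25.5% ± 3.05 in Col_400. ARR8 supplied 20.6% ± 2.34, 11.5% ± 2.69 and 14.3% ± 1.10, and ARR6 12.7% ± 0.907, 7.69% ± 1.41 and 5.49% ± 0.663. ARR4 had the largest mean share in the 3 groups, at 29.1% ± 4.32, 32.3% ± 3.93 and 28.9% ± 4.01, although ARR5 exceeded it in Col_400 replicate 4 (570 and 484 per kb).

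**Figure D3:**
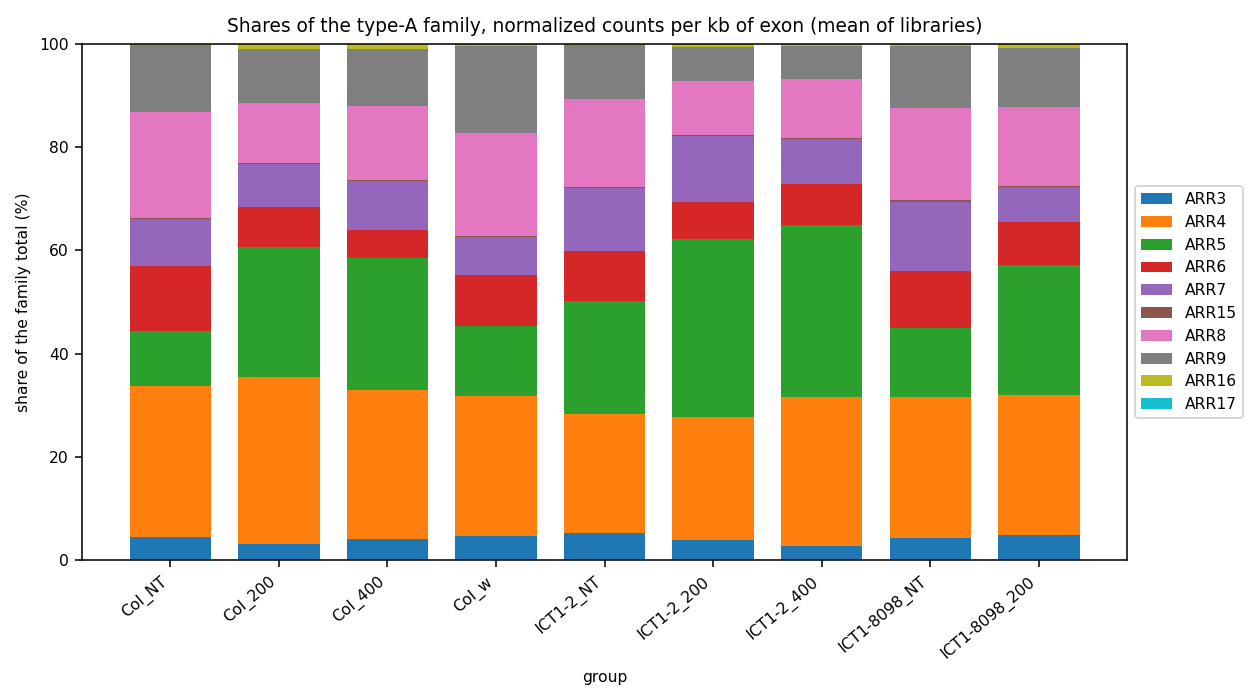
Stacked bars give the mean share (%) of each of the 10 members in the summed normalized counts per kb of exon of the family (vertical axis) for each group (horizontal axis). ARR5 takes 10.7% in Col_NT and 25.2% in Col_200, and ARR8 20.6% and 11.5%.

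Of 4 root hair markers 1, PRP3, was called lower at each dose in the same libraries (13.9% and 17.4% of all genes were lower). The summed level of the 4 was 575 to 1135 in Col_NT, 179 to 662 in Col_200 and 307 to 445 in Col_400. The 7 meristem and root cap markers summed to 917 to 1053, 955 to 1123 and 825 to 907, with PLT2 called lower at 400 µM. Of 8 vasculature markers, APL and SEOR1 were called lower at 200 µM and SEOR1 at 400 µM, and of 3 tested endodermis markers CASP1 was called lower at 400 µM. In whole roots, fewer cells of a type and less RNA per cell cannot be told apart. The part of these markers in the differences of the family was not tested.

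The second question was whether I3C had the same effect in the S30 lines. ARR8 and ARR9 fell in each of the 3 line comparisons, and ARR5 was called in none of them. In the libraries labelled ICT1-2, 3 of 9 members were called at 200 µM (ARR16 higher, ARR8 and ARR9 lower). Of all genes 18.6% were called there, 11.8% higher and 6.76% lower. At 400 µM 3 were called as well (ARR3, ARR8 and ARR9 lower), against 31.4% of all genes and 13.7% in that direction. In ICT1-8098 at 200 µM, 5 were called, all lower: ARR4, ARR6, ARR7, ARR8 and ARR9 (22.1% of all genes, 7.97% lower). The members' median difference there was -0.72, and that of all genes -0.04. That median includes ARR15 (-1.05, not called), which was tested only because it is high in ICT1-8098_NT, so its fall from that group is no support. Leaving ARR15 out, the median lies between the differences of ARR9 (-0.72) and ARR4 (-0.55). With scaling by total reads, the shares of all genes called higher and lower were 8.59% and 16.9% in ICT1-2 at 200 µM, 10.1% and 40.2% at 400 µM and 11% and 15.8% in ICT1-8098.

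Marker genes also differed in the same ICT1-2 libraries. Of the 7 shoot photosynthesis genes 5 were called lower at 200 µM and 4 at 400 µM, with sums of 1780 to 1813 in ICT1-2_NT, 387 to 494 in ICT1-2_200 and 567 to 890 in ICT1-2_400. Of the 7 meristem and root cap markers PLT1 and SMB were called lower at both doses, and of the 4 root hair markers PRP3 at 400 µM. In ICT1-8098 no gene of the 5 marker lists was called with I3C (limma). The part of these markers in the members' differences was not tested.

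ARR8 was at 1258 and 1270 in the libraries labelled ICT1-2_NT, at 553, 712 and 725 in ICT1-2_200 and at 719, 737 and 813 in ICT1-2_400. In ICT1-8098 it was at 1466, 1467 and 1487 with DMSO and at 734, 919 and 929 with I3C. In neither line did DMSO and I3C libraries overlap. The log2 differences were -0.94 (SE 0.17, adjusted p = 0.000229), -0.74 (SE 0.17, adjusted p = 0.00153) and -0.78 (SE 0.15, adjusted p = 0.000349), and each call held in every alternative run. ARR9 fell by 0.92 (SE 0.23, adjusted p = 0.00657) and 0.90 (SE 0.23, adjusted p = 0.00487) on the log2 scale in ICT1-2 and by 0.72 (SE 0.21, adjusted p = 0.0132) in ICT1-8098. Without ICT1-2_NT replicate 2 both ICT1-2 calls of ARR9 were lost (adjusted p = 0.129 and 0.0952). The call at 400 µM was also lost with the replicate number as a block (adjusted p = 0.0834). In ICT1-8098 the ARR9 call was lost without ICT1-8098_200 replicate 4 (-0.45, adjusted p = 0.130) or ICT1-8098_NT replicate 1 (adjusted p = 0.0603).

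ARR7 gave the largest fall in ICT1-8098. It was at 415, 445 and 457 with DMSO and at 111, 174 and 179 with I3C. Every DMSO library was more than 2 times every I3C library. The log2 difference was -1.53 (SE 0.34, adjusted p = 0.00157) and was called in all 15 alternatives. ARR6 went from 569 ± 21.4 to 290 ± 62.3 in ICT1-8098 (-0.99, SE 0.24, adjusted p = 0.00396), also in all 15. AT5G62910, which overlaps ARR6, rose there by 0.87 (adjusted p = 0.00492), and in the libraries labelled ICT1-2 by 1.08 at 200 µM (adjusted p = 0.00278) and 1.76 at 400 µM (adjusted p = 6.27e-06). ARR4 went from 2007 ± 136 to 1380 ± 239 in ICT1-8098 (-0.55, SE 0.19, adjusted p = 0.0377), a call kept in 9 of 15 alternatives and lost without ICT1-8098_200 replicate 2 (-0.40, adjusted p = 0.185) or any 1 of the DMSO libraries of that line (adjusted p = 0.0525 to 0.115).

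In the libraries labelled ICT1-2, ARR16 was at 7.50 and 8.74 with DMSO and at 11.2, 41.6 and 41.9 at 200 µM. The groups did not overlap, but 1 library of the higher group lay close to the lower. The difference of 1.63 (SE 0.52, adjusted p = 0.0285) was kept in 6 of 13 alternatives and was lost without any 1 of ICT1-2_200 replicate 2 or 4 or either DMSO library (adjusted p = 0.105 to 0.150). At 400 µM ARR16 was at 17.8 ± 6.21 (0.98, adjusted p = 0.155). ARR3 went from 214 and 215 to 72.2, 97.3 and 152 at 400 µM (-1.06, SE 0.29, adjusted p = 0.00672). This call was lost with the replicate number as a block (-0.81, adjusted p = 0.104). ARR5 was at 855 and 1142 with DMSO, at 967, 1524 and 1584 at 200 µM and at 1071, 1414 and 1603 at 400 µM, where the groups overlapped (0.42, adjusted p = 0.351, and 0.44, adjusted p = 0.263). In ICT1-8098, ARR5 was at 652, 679 and 684 with DMSO and at 501, 1085 and 1124 with I3C (0.34, adjusted p = 0.421). Replicate 2 was the low I3C library, and without it the difference was 0.72 (adjusted p = 0.0297). The ratio of ARR5 to ARR6 was higher with I3C in both lines, as in Col-0. It was 2.05 and 2.44 in ICT1-2_NT, 4.26 to 5.39 in ICT1-2_200 and 3.47 to 4.77 in ICT1-2_400. In ICT1-8098 it was 1.10 to 1.23 with DMSO and 2.28 to 3.44 with I3C.

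**Figure D4:**
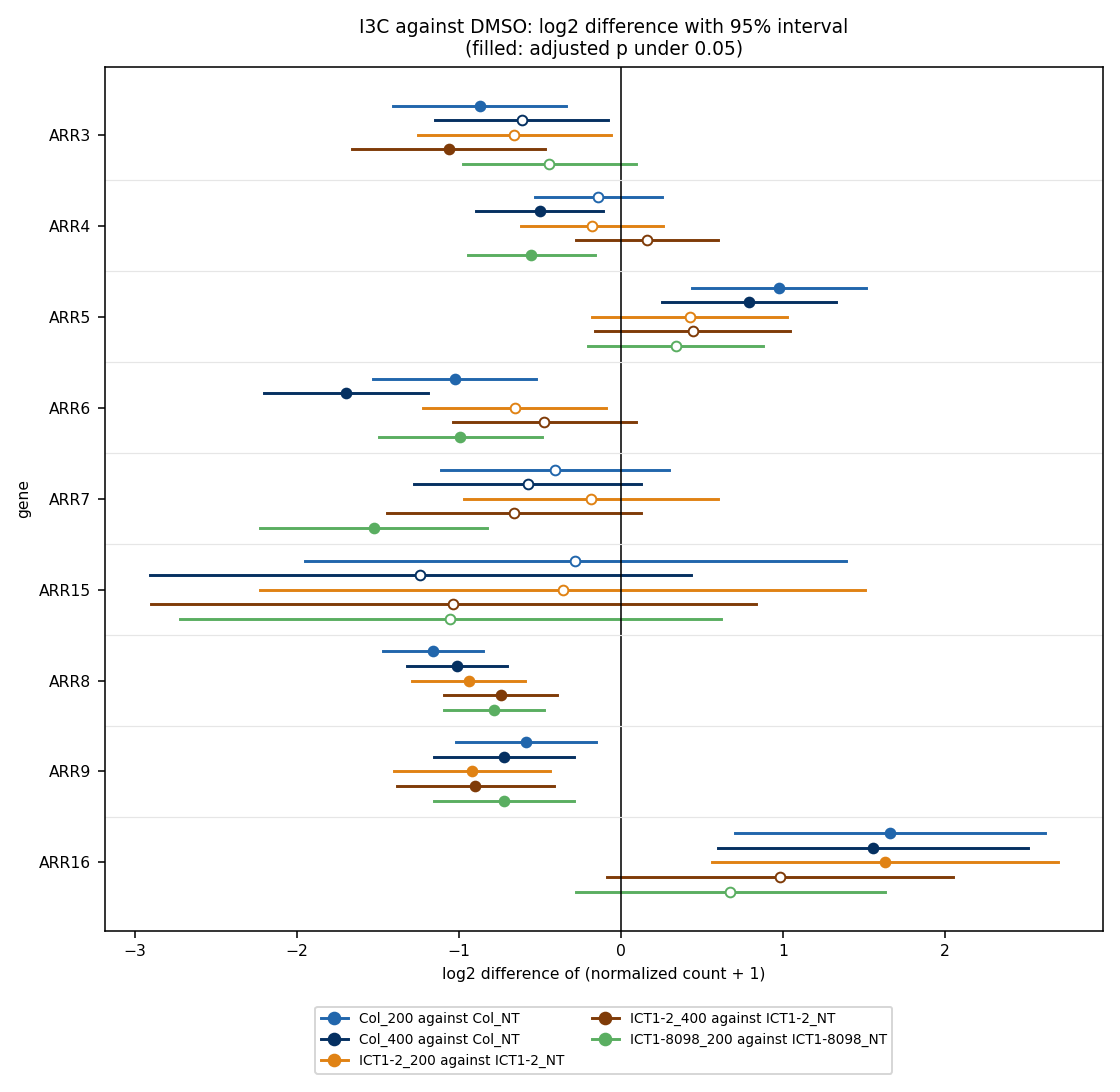
Log2 difference of (normalized count + 1) between I3C and DMSO (horizontal axis) for the 9 tested members (vertical axis) in 5 comparisons (colours), with 95% intervals and filled points where the adjusted p was under 0.05. ARR8 and ARR9 lie below 0 and filled in all 5, and ARR5 and ARR16 lie above 0 in all 5 but are filled in 2 and 3.

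The difference between a line's response and that of Col-0 was tested as an interaction. No member was called, for ICT1-2 at 200 µM (0.68% of all genes called; 0 members at an unadjusted p under 0.05), for ICT1-2 at 400 µM (2.22%; 2 members, ARR4 and ARR6) or for ICT1-8098 at 200 µM (0.264%; 1 member, ARR7). A call in Col-0 that is missing in a line, or the reverse, is therefore not shown to differ between them. The largest interaction was that of ARR6 with ICT1-2 at 400 µM, 1.22 (SE 0.37, 95% interval 0.47 to 1.98, adjusted p = 0.0792), which was called when only the compared groups were fitted (adjusted p = 0.00677). For ARR7 with ICT1-8098 it was -1.12 (95% interval -2.11 to -0.13, adjusted p = 0.467). For ARR5 it was -0.55 (95% interval -1.36 to 0.26) and -0.35 (-1.16 to 0.46) with ICT1-2 and -0.64 (-1.40 to 0.12) with ICT1-8098.

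The third question was how the lines differed from Col-0 without I3C. In the libraries labelled ICT1-2_NT, 1 member was called, ARR5, which was higher, against 18.2% of all genes and 9.5% in that direction (11.4% with scaling by total reads). It was at 855 and 1142 against 285, 428 and 509 in Col_NT. Both lay above every Col_NT library, in a comparison where 49.8% of all genes tested were without overlap in either direction. The log2 difference was 1.32 (SE 0.29, adjusted p = 0.00259), and the call was lost without ICT1-2_NT replicate 2 (1.11, adjusted p = 0.0635). The ratio of ARR5 to ARR6 was 2.24 on average in ICT1-2_NT and 0.836 ± 0.201 in Col_NT. The exact permutation test gave p = 0.2 (two-sided, 2 libraries against 3), the smallest that it can give with these numbers of libraries. The 7 meristem and root cap markers summed to 1307 and 1442 in the ICT1-2_NT libraries against 917 to 1053 in Col_NT, with 1 of 7, PLT1, called higher. Of 8 vasculature markers 1 was called lower, and of 3 tested endodermis markers 1 was called higher. The part of these markers in the ARR5 difference was not tested.

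In ICT1-8098_NT no member was called (limma, 12.2% of all genes called), and 2 had an unadjusted p under 0.05, ARR5 and ARR7. ARR7 was at 415, 445 and 457 against 205, 224 and 247 in Col_NT (0.96, SE 0.34, adjusted p = 0.0677), and ARR5 at 652, 679 and 684 against 285, 428 and 509 (0.76, SE 0.26, adjusted p = 0.0591). Neither overlapped the control. The ratio of ARR5 to ARR6 was 1.10 to 1.23 in ICT1-8098_NT and 0.605 to 0.970 in Col_NT, so the higher ratio was not particular to ICT1-2_NT. With other settings ARR7 was called with adjusted p-values of 0.000853 (only the compared groups), 0.0373 (scaling by total reads) and 0.0160 (voom on recovered reads). ARR5 was called at 0.0286 (only the compared groups), 0.0246 (scaling by total reads), 0.0486 (replicate number as a block) and 0.0403 (without Col_NT replicate 5). The authors' deposited table gives 0.0240 for ARR7 and 0.0442 for ARR5. Neither was called in any alternative not given here for it, and ARR7 was called in no fit that left out 1 library. Leaving out ARR15, which was tested only because it is high in ICT1-8098_NT, all 3 libraries of that group lay above all 3 of Col_NT for 7 of the other 8 members, and 34.9% of all genes were without overlap in either direction. The median difference of these 8 was 0.33, and that of all genes -0.02. The family sum per kb was 3494 ± 101 in ICT1-8098_NT and 2623 ± 49.3 in Col_NT. The 7 shoot photosynthesis genes summed to 703 to 924 in ICT1-8098_NT and 1347 to 3337 in Col_NT, with 4 of 7 called lower, and 2 of 8 vasculature markers, XCP1 and XCP2, were called higher. Their part in the difference was not tested.

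With I3C the lines were again compared with Col-0 at the same dose. At 200 µM ARR5 was higher in the libraries labelled ICT1-2 (0.77, SE 0.26, adjusted p = 0.0382), where 21.6% of all genes were called and 11.4% higher, and ARR3 and ARR8 were higher in ICT1-8098 (24.2% called, 12.5% higher; with scaling by total reads the higher shares were 17.5% and 21.1%). ARR3 was at 109, 164 and 172 in ICT1-8098_200 against 75.7, 81.0 and 101 in Col_200 (0.76, SE 0.26, adjusted p = 0.0337), and ARR8 at 734, 919 and 929 against 495, 605 and 618 (0.59, SE 0.15, adjusted p = 0.00683). Neither overlapped. The ARR5 and ARR3 calls were each kept in 8 of 15 alternatives (adjusted p-values from 0.00727 to 0.141 and from 0.0113 to 0.135). They were lost without any 1 Col_200 library for ARR5, without Col_200 replicate 4 or 5 for ARR3, without ICT1-2_200 replicate 2 or 4 for ARR5 and without ICT1-8098_200 replicate 2 or 3 for ARR3. The ARR8 call was lost without Col_200 replicate 4 (adjusted p = 0.0522) and with only the compared groups (adjusted p = 0.0689). All 7 shoot photosynthesis genes were lower in both lines at this dose, summing to 387 to 494 in ICT1-2_200, 406 to 412 in ICT1-8098_200 and 1846 to 6569 in Col_200. Of 3 tested endodermis markers 1 was called higher in each line, and of 8 vasculature markers 1 was called higher in ICT1-2. The part of these markers was not tested.

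At 400 µM, ARR4, ARR5 and ARR6 were higher in the libraries labelled ICT1-2 than in Col-0, 3 of 9 members against 26% of all genes and 14.1% in that direction. ARR6 was at 308, 311 and 336 against 146, 148 and 152 in Col_400. Each ICT1-2 library was more than 2 times the highest Col-0 library (1.09, SE 0.24, adjusted p = 0.00192). AT5G62910, which overlaps it, did not pass the test there (0.02, adjusted p = 0.952). ARR5 was at 1071, 1414 and 1603 against 543, 721 and 826 (0.97, SE 0.26, adjusted p = 0.00808), with no overlap, and the calls of ARR5 and ARR6 held in all 15 alternatives. ARR4 was at 1699 ± 269 against 1128 ± 125 (0.58, SE 0.19, adjusted p = 0.0256) and was lost without Col_400 replicate 1 or 4 or ICT1-2_400 replicate 4 or 5 (adjusted p = 0.0542 to 0.117). Between 400 and 200 µM within ICT1-2 no member was called (limma, 8.03% of all genes), and none had an unadjusted p under 0.05. The shoot photosynthesis genes summed to 567 to 890 in ICT1-2_400 and 1827 to 2964 in Col_400, with 4 of 7 called lower. Of 8 vasculature markers 1 was called higher and 1 lower, and of 3 tested endodermis markers 1 was called higher. The part of these markers was not tested.

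**Figure D5:**
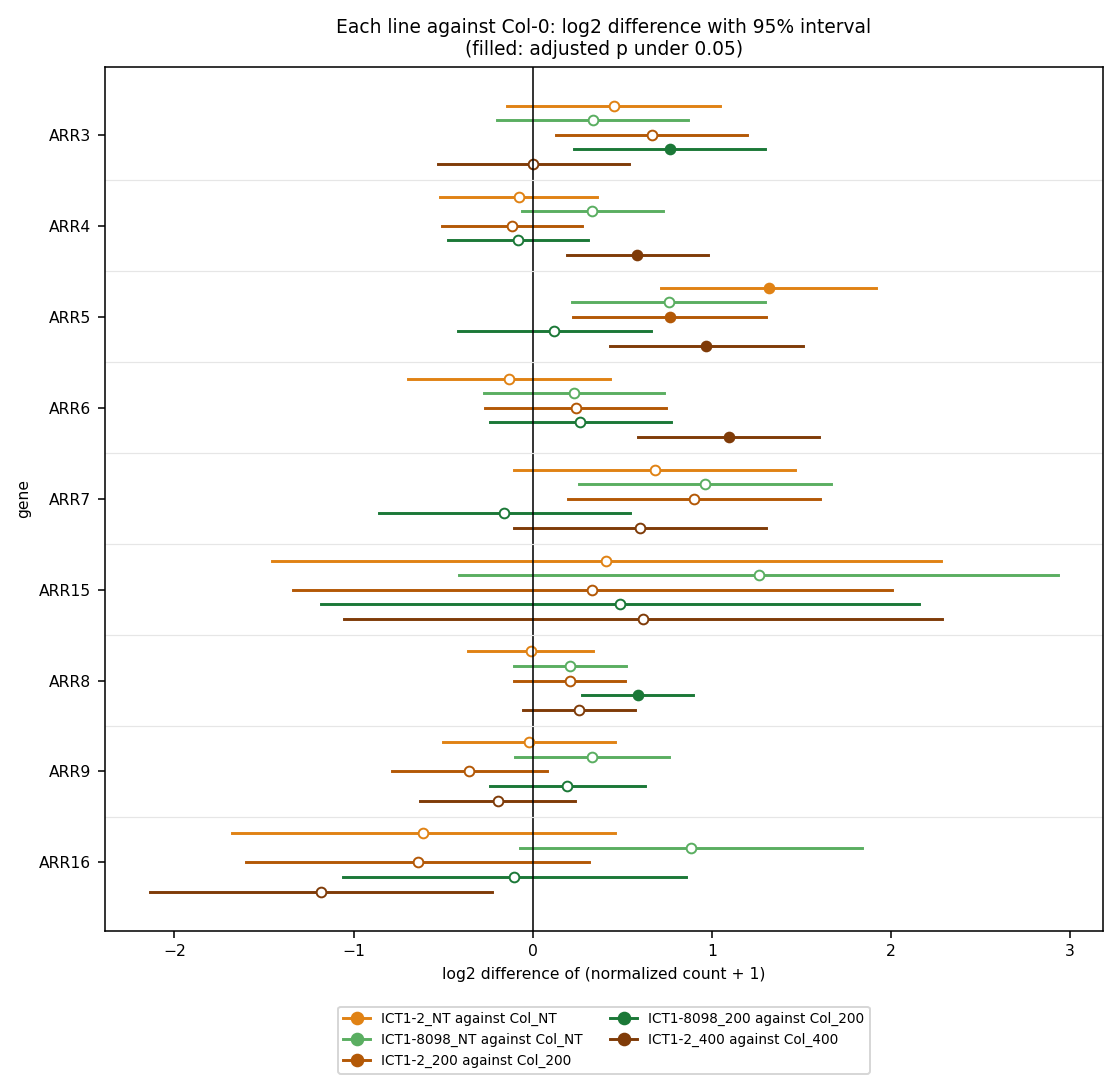
Log2 difference of (normalized count + 1) between a line and Col-0 under the same treatment (horizontal axis) for the 9 tested members (vertical axis) in 5 comparisons (colours), with 95% intervals and filled points where the adjusted p was under 0.05. ARR5 is filled in the 3 comparisons of ICT1-2, and all filled points lie above 0.

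After leaf wounding no member was called in roots (limma, 2.47% of all genes called), and 1, ARR9, had an unadjusted p under 0.05. ARR9 was at 690, 917 and 1170 in Col_w against 582, 611 and 722 in Col_NT, which overlapped (0.51, SE 0.21, adjusted p = 0.304). ARR6 ranged from 268 to 621 in Col_w, and ARR8 from 1058 to 1746, wider than in any other group. For ARR5 the 95% interval of the difference ran from -0.08 to 0.99, and for ARR8 from -0.25 to 0.37.

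Upstream of the family, the receptors moved in both directions. The counts that follow stand beside 28.9% of all genes called at 200 µM (13.9% lower) and 35.8% at 400 µM (17.4% lower), and call nothing particular to a list. In Col-0 the cytokinin receptor genes AHK2 and AHK4 fell (-1.25 and -0.69 at 200 µM, adjusted p = 5.77e-07 and 0.00115) and AHK3 rose (0.63, adjusted p = 0.000562), all 3 of 3 called, with the same directions at 400 µM (-1.27, -0.87 and 0.84). AHK2 was at 529 ± 52.4 in Col_NT and 221 ± 21.0 in Col_200. Of 6 phosphotransfer genes 2 fell at 200 µM, AHP1 (-0.74, adjusted p = 0.000318) and AHP5 (-0.62, adjusted p = 0.0138), and 0 rose. Of 11 type-B regulators 6 were tested, and 3 fell at 200 µM (ARR11 by 0.94, ARR2 by 0.47 and ARR1 by 0.45 on the log2 scale) and 0 at 400 µM. Neither type-C regulator, ARR22 nor ARR24, was tested.

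Among the other parts of the pathway, the cytokinin response factor CRF6, an AP2-type transcription factor, rose from 179 in Col_NT to 751 in Col_200 and 1047 in Col_400 (2.06, adjusted p = 1.36e-09, and 2.54, adjusted p = 2.78e-11), and none of the other 5 of its list was called. Of 4 KMD F-box genes, which target type-B regulators for degradation, 2 were tested. KMD2 fell at 200 µM (-1.45, adjusted p = 1.29e-06) and at 400 µM (-0.66), and KMD1 rose at 400 µM (1.13, adjusted p = 0.00693). Of 8 cytokinin-induced genes outside the family, 4 fell and 0 rose at 200 µM: CYP735A2, a cytokinin hydroxylase (-4.81, adjusted p = 3.66e-08), CKX4, a cytokinin oxidase (-2.57, adjusted p = 5.44e-06), ASL9, listed as LBD3 (-1.44, adjusted p = 0.00653), and AHK4. At 400 µM 3 fell, and CKX4 was not among them, with 14.2 in Col_200 and 65.6 in Col_400. Of 15 tested synthesis genes 2 rose and 4 fell at 200 µM, with LOG5 at 2.67 and IPT3 at -2.47, and of 6 tested breakdown genes 1 rose and 1 fell, counts that include CYP735A2 and CKX4 a second time. After wounding 0 genes of these lists were called (limma).

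In ICT1-8098 at 200 µM the receptors took the same directions (AHK2 -0.96, AHK4 -0.69, AHK3 0.96), and 3 of 8 cytokinin-induced genes fell, CYP735A2 by 3.52 and CKX4 by 2.70 on the log2 scale, where 7.97% of all genes were lower. In the libraries labelled ICT1-2 AHK2 fell (-1.04 and -1.16) and AHK3 rose (0.77 and 0.71) at the 2 doses, and AHK4 was not called. Of the 8 cytokinin-induced genes 2 fell and 0 rose there at each dose, where 6.76% of all genes were lower at 200 µM and 13.7% at 400 µM.

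The genes whose pattern over the 26 libraries was most like that of the family were ranked by Pearson r with the mean z score of the members, among 16859 genes outside it with a mean of at least 50 normalized counts. AHK4, the cytokinin receptor also known as CRE1 or WOL, had the highest r (0.82), and others among the most alike were LAC7 (0.81), AT3G45070 (0.80), AT4G28940 (0.80), AT4G02850 (0.80), TAR3 (0.80) and AT4G12510 (0.79). These libraries share treatments and lines, so r describes a common pattern over groups. Within the family r with the mean of all members was 0.85 for ARR6, 0.76 for ARR3, 0.75 for ARR4 and ARR7, 0.72 for ARR8, 0.63 for ARR15, 0.62 for ARR9 and 0.45 for ARR17, but 0.10 for ARR5 and -0.22 for ARR16, each member being part of that mean. ARR15 and ARR17, with few reads, weigh as much in it as the others.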

How the data were processed

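The labels list 27 root libraries in 9 groups. The deposited counts hold no values for replicate 5 of ICT1-2_NT, so 26 libraries were used. Per the labels' protocols, libraries were made with a TruSeq kit v2. The submitters' processing notes name the build TAIR10 and the tools HTSeq 0.6.1, TopHat2 2.1.0 and DESeq2 1.18.1, without their roles. Per the file headers, the authors deposited normalized counts, several libraries to a cell, beside the log2 fold changes and p-values (raw and adjusted) from their comparisons. Multiplied back by a size factor, 100% of values came out whole within 0.1 reads. At these depths 3 reads correspond to 0.154 to 0.316 CPM, for counting error only.

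Differences were contrasts of group means in a single limma 3.58.1 fit (R 4.3.3, eBayes with trend) of log2(normalized count + 1) over 9 groups, with no replicate block, adjusted over 21180 genes. Sequences and gene structures came from the RefSeq annotation of TAIR10.1, in which 99.97% of 32547 genes start at the same base as in the table and all 10 members have the same position. Motifs were counted on both strands, overlaps included. All 10 members were named, and of each pathway list the counts and up to 4 called genes with the largest differences. Of the genes most alike in pattern, 1 is not reported here. Names of KMD genes and LOG genes not in the table came from that annotation. The members and lists were chosen with earlier results of these data known. Alternatives were no filter on low counts or 5 CPM in 3 libraries, a pseudocount of 5, TMM or total-read scaling, only the compared groups, the replicate number as a block, the authors' deposited calls and leaving out each library. A quasi-likelihood test had been planned and was not run, since the table packs normalized values, and voom on the recovered reads, chosen after seeing the data, took its place.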

Additional observations from a re-analysis of the deposited data

How the results depend on the processing

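No difference of a member that was called changed direction in any alternative. Leaving out 1 library at a time, the number of members called lay between 4 and 6 for Col_200 and for Col_400 against Col_NT, 0 and 1 for ICT1-2_NT and for ICT1-8098_NT against Col_NT, 1 and 3 for ICT1-2_200 and 2 and 3 for ICT1-2_400 against ICT1-2_NT, 3 and 5 for ICT1-8098_200 against ICT1-8098_NT, 0 and 3 for ICT1-2_200 and 0 and 2 for ICT1-8098_200 against Col_200, and 2 and 3 for ICT1-2_400 against Col_400. It was 0 throughout for both dose comparisons, wounding and the interactions. With only the compared groups in the fit, the count was 2 for ICT1-2_NT and 2 for ICT1-8098_NT against Col_NT, 5 for ICT1-2_400 against ICT1-2_NT, 0 for ICT1-8098_200 against Col_200 and 1 for the interaction of ICT1-2 with 400 µM. With total-read scaling it was 2 for ICT1-8098_NT against Col_NT, 5 for each ICT1-2 dose against ICT1-2_NT and 3 for ICT1-2_200 against Col_200. With voom it was 1 for ICT1-8098_NT against Col_NT, 2 for ICT1-2_200 and 1 for ICT1-8098_200 against Col_200. The authors' deposited table gives 2 for ICT1-8098_NT against Col_NT and 2 for ICT1-2_200 against Col_200, and with no filter on low counts the latter was 0. The cause was not tested.

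Libraries of the same replicate number had correlations of deviations from -0.157 to 0.299, which does not settle whether the numbers pair libraries. With the number as a replicate block the count was 1 for ICT1-8098_NT against Col_NT, 1 for ICT1-2_400 against ICT1-2_NT, 0 for ICT1-2_200 and 1 for ICT1-8098_200 against Col_200. The planned quasi-likelihood test was not run. Low depth limits ARR15, ARR16 and ARR17.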
